A study of Mus musculus with 8 samples.

Results

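G-1, an agonist of the G protein-coupled estrogen receptor GPER1, was compared with no G-1 in resting macrophages, called M0 macrophages here. The M0 + G-1 library came from wild-type mouse bone marrow cells that had been differentiated for 7 days in medium conditioned by L929 cells, a source of macrophage colony-stimulating factor, and then received G-1 at 10 μmol/L over a further 48 h. The M0 library came from the same kind of culture with no G-1. RNA of 3 samples was pooled for each library, so there was 1 library a group. The sources used here state neither how long the M0 culture was kept after day 7, nor its vehicle, nor the sex and age of the donor mice. Time in culture, vehicle and G-1 can therefore not be told apart in this pair. Y-linked genes were counted in both libraries, with Ddx3y at 2613 counts with G-1 and 2538 without, so both held RNA of male cells. Whether female cells were pooled with them was not tested. The genes compared were those that reached 20 counts in either library, 11252 of the 22173 gene symbols counted.

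Macrophages derived from bone marrow depend on macrophage colony-stimulating factor, which signals through the receptor CSF1R. They clear dead cells and microbes with scavenger, lectin, complement and Fc receptors, present peptides on MHC class II, and keep a low level of interferon-stimulated transcripts through interferon-beta that they make themselves. They also take up much lipid. SREBP factors switch on cholesterol and fatty acid synthesis when sterols are scarce, LXR switches on cholesterol export when sterols are plentiful, and PPAR factors switch on fatty acid uptake and storage. G-1 was designed to bind GPER1 and not the nuclear estrogen receptors ERα and ERβ, which Esr1 and Esr2 encode.

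The M0 + G-1 library held 37000838 counts and the M0 library 35027179, on 12941 and 13040 genes. With 1 library a group there was no replicate check and no p-value is reported for the pair, so the differences are those of 2 pooled libraries and their relation to the spread between cultures is unknown. The intervals printed with folds are 95% exact binomial intervals of the counts and cover counting error only. All 10 macrophage markers were counted in both libraries. Their summed level, in counts scaled to an equal library size by TMM (CPM), was 21593 CPM in the M0 + G-1 library and 40909 CPM in the M0 library. Lyz2 gave the largest part of this gap, with 201537 counts with G-1 and 954912 without. Of the 10 markers 5 were at least 2-fold lower, 4 lay within 2-fold, and Lgals3 was higher (356671 and 102246 counts). Several marker sets of other cells gave few counts, and 3 sets gave more. Endothelial markers summed to 9238 counts with G-1 and 1185 counts without, mostly from Vwf and Kdr, and osteoclast markers to 655 CPM with G-1 and 103 CPM without, mostly from Atp6v0d2. The T and NK cell markers summed to 6.11 CPM with G-1 and 41.6 CPM without, nearly all of it from Cd4, and Cd3e, Cd3d, Cd3g, Cd8a and Ncr1 were at 0 in both. Of the 12 neutrophil markers, 9 were detected, at 23.8 CPM with G-1 and 96.2 CPM without, mostly from Csf3r (789 and 3180 counts). Granule genes of neutrophils were nearly absent with G-1, with Ngp at 0 and 90 counts, Ltf at 0 and 102, and S100a9 at 2 and 100. S100a8 differed less, with 40 and 62 counts. Ly6g, Elane and Retnlg were at 0 in both. The stromal markers Col1a1 and Col1a2 had 0 counts with G-1, against 30 and 84 counts without. Monocyte markers summed to 1.68 CPM with G-1 and 17.2 CPM without, mostly from Ccr2 (9 and 562 counts). Ly6c2 (11 and 13 counts) and Treml4 (34 and 34) were alike. B cell markers summed to 0.342 and 2.89 CPM, dendritic cell markers to 1.74 and 3.06 CPM, and erythroid markers to 0.114 and 0.162 CPM. The third set was that of megakaryocyte markers, which, at 51.8 CPM with G-1 and 581 CPM without, came almost wholly from Pf4. The study's macrophage panel held 20 genes, of which 14 were measured. Of these, 10 fell by 2-fold or more in the M0 + G-1 library, against 12.6% of all genes compared, and 0 rose by as much. The other 4 stayed within 2-fold. In 3 of the 14 the level with G-1 was the higher one. The largest rise was that of Cd68, also 1 of the 10 macrophage markers above (70500 and 38559 counts). In bulk RNA, fewer cells of a type and less RNA per cell cannot be told apart, and the part of such cells in the results was not tested.

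Of the 11252 genes, 1375 (12.2%) were at least 2-fold higher in the M0 + G-1 library and 1416 (12.6%) at least 2-fold lower, and 8461 lay within 2-fold. The median log2 fold, of M0 + G-1 over M0, was 0.00. At least 4-fold differences were counted at 498 genes that were higher and 575 that were lower, and at least 16-fold differences at 112 and 151 genes. The shares 12.2% and 12.6% are the background against which the counts of each gene group below are read. All levels are relative to the library as a whole. Scaling by the library totals instead of by TMM moved the median of all genes to -0.16 on the log2 scale. The folds also followed the length of the transcripts slightly, with Spearman's rho 0.13 across 11047 genes, which share both libraries and are not independent. Genes with the shortest 20% of transcripts had a median of -0.12 and those with the longest 20% a median of 0.14.

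**Figure D1:**
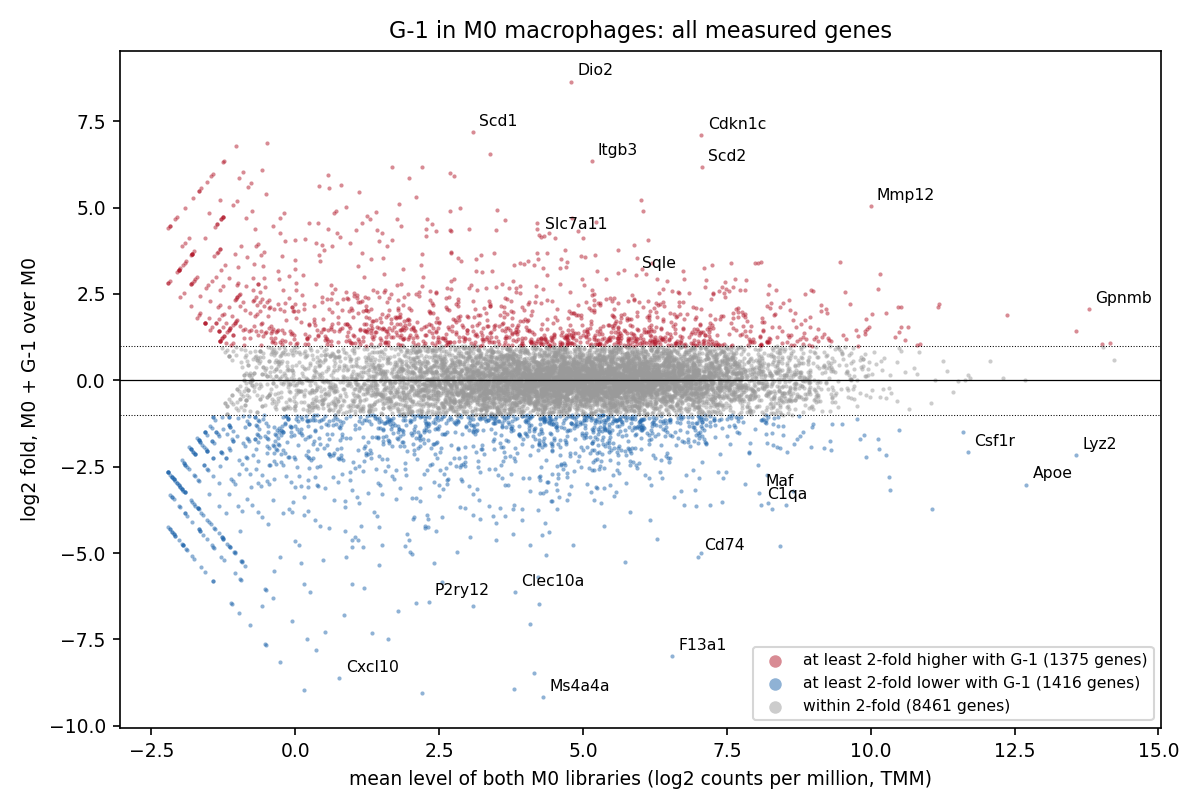
Log2 fold of M0 + G-1 over M0 (y axis) against the mean level in both M0 libraries (x axis, log2 CPM after TMM) for 11252 genes, 1 point a gene, with dotted lines at 2-fold. The 1375 higher genes in red and the 1416 lower genes in blue spread over the whole range of levels, and the slanted rows of points at the left are genes with 0 or few counts in 1 library.

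The 15 largest increases had log2 folds between 5.92 and 8.65. Dio2, which turns thyroxine into its active form, was counted 19435 times in the M0 + G-1 library and 51 times in the M0 library, a 402-fold increase (log2 fold 8.65, interval 8.26 to 9.08). Scd1, a stearoyl-CoA desaturase that makes monounsaturated fatty acids, had 3573 and 26 counts (log2 fold 7.18), and its paralog Scd2 had 40057 and 583 (log2 fold 6.18). Both paralogs may share reads. Gprc5b, an orphan G protein-coupled receptor, had 3556 counts with G-1 and 40 without (log2 fold 6.55). Cd200, the surface ligand of the inhibitory receptor CD200R, had 957 counts with G-1 and 14 without (log2 fold 6.17). Adamts1, a secreted metalloproteinase, had 104 counts with G-1 and 1 without, and with a single count in the M0 library its log2 fold of 6.78 had an interval of 4.27 to 12.09. Rab15, a GTPase of endosome recycling, had 192 counts with G-1 and 0 without. With the 0 set to a floor of 3 counts it was 67.5-fold higher, and its interval began at a log2 fold of 5.76. Zfp462, Spsb4, Osbp2, Arfgef3, Lipn and Zfp469 completed the 15 largest increases together with Cdkn1c and Itgb3, with log2 folds between 5.92 and 7.10 for those 8 genes.

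The 15 largest decreases had log2 folds between -9.17 and -7.28. Jaml, a junctional adhesion molecule of leukocytes, had 0 counts in the M0 + G-1 library and 713 in the M0 library. With the 0 set to a floor of 3 counts this is a 225-fold decrease, and the interval reached up to a log2 fold of -7.51. Kmo, the kynurenine 3-monooxygenase of tryptophan breakdown, had 0 and 567 counts, a 179-fold decrease with the same floor and an interval up to a log2 fold of -7.18. Adgre4, an adhesion receptor of the EGF-TM7 family, had 8 counts with G-1 and 1508 without (log2 fold -7.48). Gpr34, a receptor for lysophosphatidylserine, had 7 counts with G-1 and 1181 without (log2 fold -7.32). Tnfsf10, the death ligand TRAIL, had 1 count with G-1 and 212 without (log2 fold -7.65, interval -12.96 to -5.16). The other 10 of the 15 largest decreases were Ms4a4a, Tmem176a, Ms4a4c, Tmem176b, Cxcl10, Fcrls, Iigp1, F13a1, Ifi208 and Ifit1bl1. Fcrls, Gpr34 and P2ry12, which mark microglia in mouse, were counted 33, 7 and 19 times with G-1, against 12342, 1181 and 1699 times without.

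**Figure D2:**
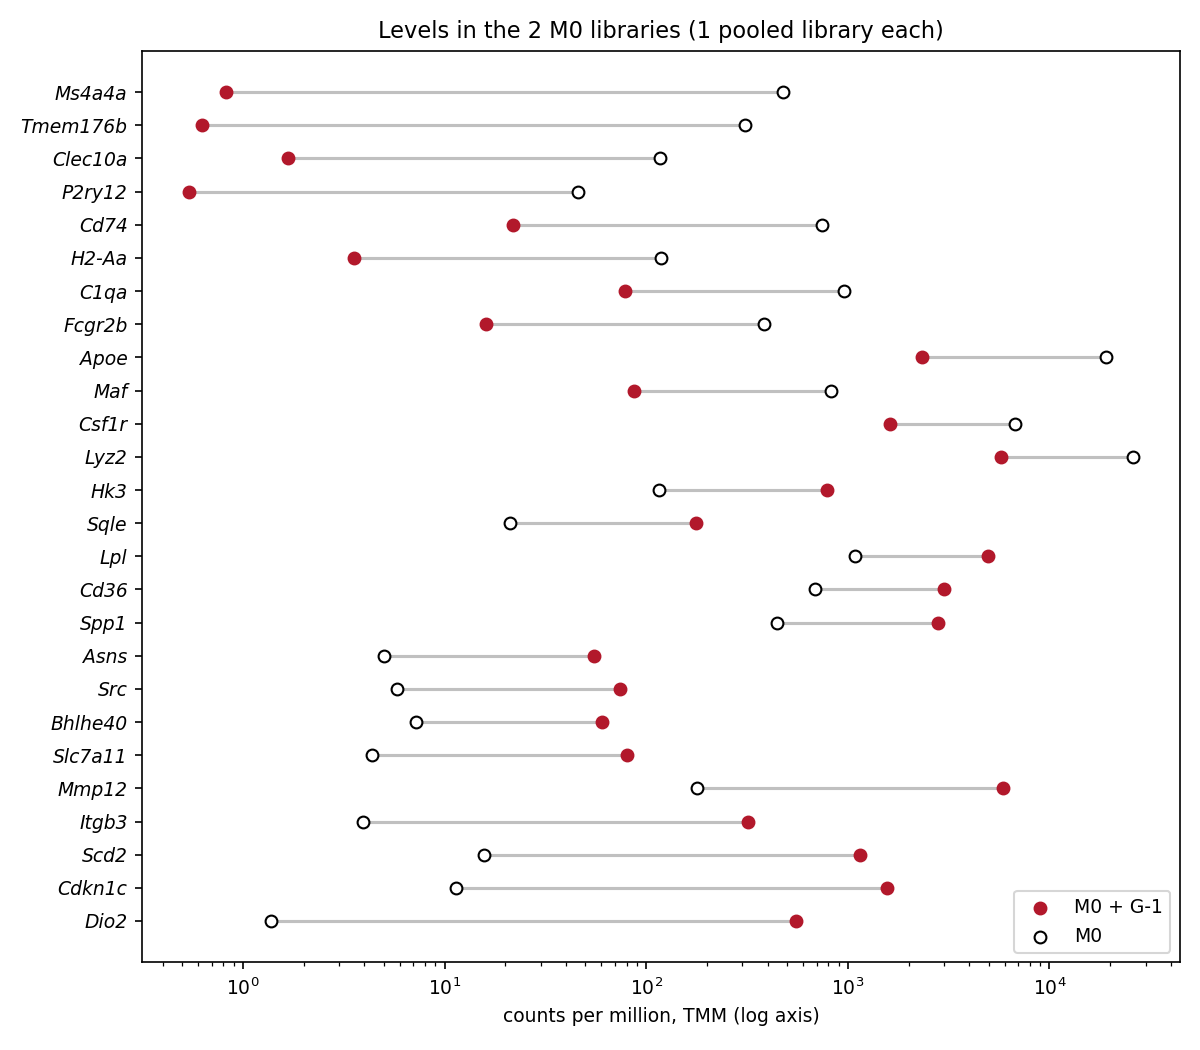
Level of 26 named genes in CPM after TMM (x axis, log scale) in the M0 + G-1 library (filled red) and the M0 library (open), 1 pooled library each. The 12 genes at the top sit lower with G-1, with log2 folds between -9.17 (Ms4a4a) and -2.07 (Csf1r), and the 14 below them sit higher, up to Dio2 with 8.65.

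The makeup of the most counted transcripts was different too. Gpnmb, a glycoprotein of lysosome-rich and lipid-laden macrophages, took 2.75% of the counts with G-1 and 0.739% without. Mmp12, the macrophage elastase, took 0.558% with G-1 (206290 counts) and 0.0188% without (6575 counts), a log2 fold of 5.05. Conversely Lyz2, the macrophage lysozyme, took 0.545% with G-1 and 2.73% without, and Apoe, the apolipoprotein that carries cholesterol out of macrophages, took 0.222% and 2.01%. Selenop, the plasma selenium carrier, took 0.056% with G-1 and 0.827% without. The aspartic protease gene Ctsd had 696919 counts with G-1 and 270859 without (log2 fold 1.44).

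Interferon-stimulated genes were lower as a group. Of 39 antiviral genes measured, 31 fell by 2-fold or more in the M0 + G-1 library and 0 rose, against 12.6% lower over all genes, and the median log2 fold of the 39 was -1.98. Oas3, an activator of RNase L, was the 1 gene above 0, with 4098 counts with G-1 and 3787 without (log2 fold 0.19). Ifi44 had 0 counts with G-1 and 130 without, Ifit3b had 25 and 854, and Zbp1, which senses Z-DNA and Z-RNA, had 42 and 914. All 13 interferon-induced GTPases of the GBP and IRG families were lower, with a median log2 fold of -3.70. Iigp1 had 1 count with G-1 and 298 without, and Gbp7 had 79 and 2058 (log2 fold -4.63). Members of these families resemble each other closely, and reads may have been split between them. Of 15 IRF and STAT factors, which carry the interferon signal to the genome, 8 were lower and 0 higher. Irf7, which amplifies type I interferon production, had 415 counts with G-1 and 3527 without (log2 fold -3.01), and Irf4 had 10 and 686 (log2 fold -6.02). Irf5 had 10724 counts with G-1 and 6039 without, a log2 fold of 0.91 that stayed within 2-fold.

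The promoters of 31 of the 39 antiviral genes were found in RefSeq on GRCm38.p6, each from 250 bases before to 50 after the start. The letters GAAA, NN for 2 bases of any kind, and GAAA again, on either strand, are the core of the interferon-stimulated response element that ISGF3 and IRF factors bind. They occurred in 19 of the 31 (61.3%), against 3.97% of the 9113 measured genes with a promoter and 3.44% of all 32851 promoters in the table. Of those 19 genes 13 were lower with G-1, and of the 12 genes without these letters 10 were. Over all measured genes with a promoter, 95 of the 362 that hold the letters (26.2%) were lower, against 11.8% of the 8751 that do not. A match of letters is a description, not a shown binding site. The promoters of Ifit1, Rsad2 and Isg15 are printed to show how the letters stand before the start, with the matches in capitals. They read 5′ to 3′ on the strand of the gene. Ifit1 has 2 matches, Rsad2 has 1, and Isg15 has 3 that overlap.
Ifit1, chr19:34640639-34640938, plus strand: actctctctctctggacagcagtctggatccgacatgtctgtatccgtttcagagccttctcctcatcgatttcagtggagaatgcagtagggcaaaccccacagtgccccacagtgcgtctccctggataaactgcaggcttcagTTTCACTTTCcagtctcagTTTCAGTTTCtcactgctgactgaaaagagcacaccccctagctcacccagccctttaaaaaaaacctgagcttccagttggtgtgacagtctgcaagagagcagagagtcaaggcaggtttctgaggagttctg
Rsad2, chr12:26456403-26456702, minus strand: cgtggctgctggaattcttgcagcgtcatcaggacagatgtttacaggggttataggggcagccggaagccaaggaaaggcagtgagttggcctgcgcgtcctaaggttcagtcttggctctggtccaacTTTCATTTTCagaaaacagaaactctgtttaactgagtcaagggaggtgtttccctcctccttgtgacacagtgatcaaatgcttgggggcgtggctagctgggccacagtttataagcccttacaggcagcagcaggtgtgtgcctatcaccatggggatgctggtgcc
Isg15, chr4:156200769-156201068, minus strand: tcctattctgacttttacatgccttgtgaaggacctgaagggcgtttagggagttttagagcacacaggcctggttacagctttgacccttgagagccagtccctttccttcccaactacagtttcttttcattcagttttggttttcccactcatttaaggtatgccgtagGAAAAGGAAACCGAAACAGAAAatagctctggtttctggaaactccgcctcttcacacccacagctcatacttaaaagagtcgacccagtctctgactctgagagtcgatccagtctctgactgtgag
Ifit1 had 132 counts with G-1 and 2299 without (log2 fold -4.05), Rsad2, the antiviral enzyme viperin, had 983 and 4080 (log2 fold -1.98), and Isg15, a ubiquitin-like protein, had 179 and 1027 (log2 fold -2.44).

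Transcripts of MHC class II presentation were lower throughout. All 8 genes measured fell by at least 2-fold with G-1, and their median log2 fold was -4.76. Ciita, the transactivator that switches the class II genes on, had 19 counts in the M0 + G-1 library and 545 in the M0 library (log2 fold -4.77). Cd74, the invariant chain, had 764 and 27636 counts (log2 fold -5.10, interval -5.21 to -5.00). The chains of the class II molecules themselves followed: H2-Aa had 124 counts with G-1 and 4373 without (log2 fold -5.06), H2-Ab1 190 and 5426 (log2 fold -4.76), and H2-Eb1 114 and 3279 (log2 fold -4.77). The peptide editors differed less, with H2-DMa at 349 and 2054 counts (log2 fold -2.48) and H2-DMb1 at 723 and 1785 (log2 fold -1.23). Class I presentation stood apart in size. Of 15 class I and immunoproteasome genes 4 were lower and 0 higher, and the class I heavy chain H2-D1 had 121623 counts with G-1 and 121569 without. The immunoproteasome subunit Psmb9 was lower, with 402 counts with G-1 and 1572 without (log2 fold -1.89), and so was the peptide transporter Tap1, with 1346 and 3641 (log2 fold -1.36). Near-identical H2 genes may share reads.

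Ligands for T cells moved both ways, 4 of 14 higher and 7 lower. Cd276, the checkpoint ligand B7-H3, had 464 counts with G-1 and 61 without (8.02-fold higher), and Cd274, which encodes PD-L1, had 4482 and 2137 (log2 fold 1.15). In the other direction were Icosl, the ligand of ICOS (98 counts with G-1 and 867 without, log2 fold -3.07), Cd40 (70 and 326, log2 fold -2.14) and Tnfsf14 (19 and 226, log2 fold -3.50).

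Complement and Fc receptor genes were mostly lower. Of 19 complement genes 13 were lower and 2 higher, with a median log2 fold of -1.76. C1qa, a chain of C1q, had 2745 counts with G-1 and 35216 without (log2 fold -3.60), while the other chains C1qb and C1qc had log2 folds of -2.16 and -2.23. C3, the central component, had 528 counts with G-1 and 7847 without (log2 fold -3.82), and Cfb, of the alternative pathway, had 18 and 350 (log2 fold -4.20). Itgax, the CD11c chain of complement receptor 4, ran the other way, with 2625 counts with G-1 and 293 without (log2 fold 3.24), whereas Itgam, the CD11b chain of complement receptor 3, had 11986 and 42874 (log2 fold -1.76). The anaphylatoxin receptors C3ar1 and C5ar1 stayed within 2-fold, with log2 folds of 0.33 and 0.26. Of 8 Fc receptor genes 6 were lower and 0 higher. The inhibitory receptor Fcgr2b had 562 counts with G-1 and 14184 without (log2 fold -4.58), the neonatal receptor Fcgrt had 1481 and 18965 (log2 fold -3.60), and the high-affinity receptor Fcgr1 had 1427 and 6807 (log2 fold -2.18). Fcgr4 and the shared signalling chain Fcer1g lay at -0.29 and -0.48.

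The group that differed most was that of the MS4A and TMEM176 proteins, tetraspan proteins of myeloid membranes. All 9 measured genes were lower, with a median log2 fold of -6.47. Ms4a4a, which associates with the β-glucan receptor dectin-1 in macrophages, had 29 counts with G-1 and 17607 without (log2 fold -9.17, interval -9.75 to -8.65). Tmem176b had 22 and 11472 counts (log2 fold -8.95), Ms4a6b had 70 and 6534 (log2 fold -6.47) and Ms4a6c had 298 and 12151 (log2 fold -5.27). Ms4a7 and Ms4a6d were the least changed of them, with 5965 and 2719 counts with G-1 and 23905 and 8158 without (log2 folds -1.93 and -1.51). The MS4A genes lie in a cluster on chromosome 19, with Ms4a4a at 11375488 to 11392915 and Ms4a4c at 11404717 to 11427246 on GRCm38. Tmem176a and Tmem176b overlap on chromosome 6, from 48833811 to 48845948. Paralogs and overlapping genes may share reads, so the values of single members are uncertain.

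Among the C-type lectins, which bind sugars, 9 of 14 genes were lower and 0 higher. Clec10a, a galactose-type lectin, had 59 counts with G-1 and 4338 without (log2 fold -6.12), and its paralog Mgl2 had 15 and 649 (log2 fold -5.36). Clec7a, which encodes dectin-1, had 10557 and 5673 counts, a log2 fold of 0.97 just under 2-fold. Scavenger and resident macrophage receptors were lower in 6 of 14 genes. Cd163, the hemoglobin-haptoglobin receptor, had 39 counts with G-1 and 760 without (log2 fold -4.21), and Stab1, the receptor stabilin-1, had 15193 and 143318 (log2 fold -3.16). Cd36, the fatty acid and oxidized lipoprotein receptor, was the 1 higher member, with 104796 counts with G-1 and 25318 without (log2 fold 2.13). Msr1, the class A scavenger receptor, was at 0.67.

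Of 17 chemoattractant receptors 8 were lower and 1, Ccrl2, was higher. Fpr2, a formyl peptide receptor, had 5 counts with G-1 and 317 without (log2 fold -5.91), and Cx3cr1, the fractalkine receptor, had 2 and 117 (log2 fold -5.79). Of 13 purinergic genes 6 were lower, with the ADP receptors P2ry12 (19 and 1699 counts, log2 fold -6.41) and P2ry13 (16 and 1485, log2 fold -6.46) at the bottom. The nucleotide receptors P2rx7, P2ry6 and P2ry14 were lower as well (log2 folds -1.75, -1.54 and -2.34). The 2 higher members were P2ry2, which senses ATP and UTP, and P2ry1. P2ry2 had 2969 counts with G-1 and 459 without (log2 fold 2.77), and P2ry1 had 510 and 102 (log2 fold 2.40). Of 18 Toll-like receptors and co-receptors 10 were lower and 2 higher. Tlr2 had 1034 counts with G-1 and 11441 without (log2 fold -3.39), Tlr5 had 15 and 387 (log2 fold -4.61), and Tlr4, the receptor of LPS, had 6155 and 6289 (log2 fold 0.05). Both CD180, a Toll-like receptor relative, and its partner MD-1 were counted, and they parted: Cd180 had 12828 and 3874 counts (log2 fold 1.80), and Ly86, which encodes MD-1, had 1094 and 8204 (log2 fold -2.83). Genes of the inhibitor of kappaB family were lower at Nfkbiz (75 counts with G-1 and 1033 without, log2 fold -3.71) and Nfkbia (963 and 2767, log2 fold -1.45), and of 18 NF-kappaB pathway genes in all 7 were lower and 2 higher.

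Enzymes of lipid mediators were lower in 8 of 15 genes. Hpgd, which inactivates prostaglandins, had 51 counts with G-1 and 7211 without (log2 fold -7.07). Alox5, the 5-lipoxygenase that starts leukotriene synthesis, had 40 and 799 (log2 fold -4.24), and Ptgs1, the constitutive cyclooxygenase, had 885 and 5456 (log2 fold -2.55). Ptges, the inducible prostaglandin E synthase, was the 1 higher gene, with 248 counts with G-1 and 44 without (log2 fold 2.57).

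The transcription factors that define macrophages did not move together. Of 25 factors 5 were higher and 5 lower. Spi1, which encodes the lineage factor PU.1, had 14627 counts with G-1 and 16978 without (log2 fold -0.14). Maf, a factor of resident macrophages, was lower, with 3042 and 30468 counts (log2 fold -3.25), as was Klf2, a factor that restrains inflammation, with 185 and 1278 (log2 fold -2.71). Bhlhe40 and Bhlhe41, related repressors that sustain alveolar macrophage identity in mouse, were both higher, with 2108 and 16602 counts with G-1 and 267 and 2455 without (log2 folds 3.06 and 2.83). Id2, an inhibitor of basic helix-loop-helix factors, had 13584 counts with G-1 and 1902 without (log2 fold 2.91). Csf1r, on which these cells depend, had 56584 counts with G-1 and 250608 without (log2 fold -2.07), while Csf2ra, the α chain of the GM-CSF receptor, had 13338 and 4750 (log2 fold 1.57). Siglecf, a lectin of alveolar macrophages and eosinophils, had 75 counts with G-1 and 8 without (log2 fold 3.31, interval 2.25 to 4.57). Of the other markers of mast cells, basophils and eosinophils, Cpa3, Mcpt8, Fcer1a, Ms4a2, Epx and Prg2 were at 0 in both libraries, Kit had 8 counts with G-1 and 1 without, and Gata2 had 2 in each. The 9 markers summed to 2.42 CPM with G-1 and 0.298 CPM without.

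Genes of osteoclasts and of macrophage fusion were higher in 11 of 25 and lower in 3. Itgb3, the β3 chain of the vitronectin receptor, had 11198 counts with G-1 and 146 without (log2 fold 6.34), whereas its partner chain Itgav had 2400 and 2596 (log2 fold -0.04). Src, the kinase at podosomes, had 2593 and 214 counts (log2 fold 3.68). Atp6v0d2, a subunit of the proton pump, had 21589 and 2163 (log2 fold 3.40), and Ctsk, the collagen-cleaving cathepsin K, had 780 and 133 (log2 fold 2.63). Spp1, which encodes osteopontin, had 97873 and 16475 (log2 fold 2.65). Other genes of osteoclasts did not follow: Calcr and Oscar were at 0 in both libraries, Nfatc1, the master factor, had 2622 counts with G-1 and 3564 without (log2 fold -0.37), and Mmp9 was lower, with 160 and 1189 (log2 fold -2.82). Of 18 integrin chains 6 were higher and 8 lower. Itga5, the fibronectin receptor chain, had 9517 counts with G-1 and 2387 without (log2 fold 2.07), and Itgal, the CD11a chain of LFA-1, had 546 and 4691 (log2 fold -3.03). Among 10 matrix metalloproteinases and inhibitors Mmp12 was the 1 higher gene and 4 were lower, among them the membrane-type enzyme Mmp14 with 153 and 1317 counts (log2 fold -3.03).

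**Figure D3:**
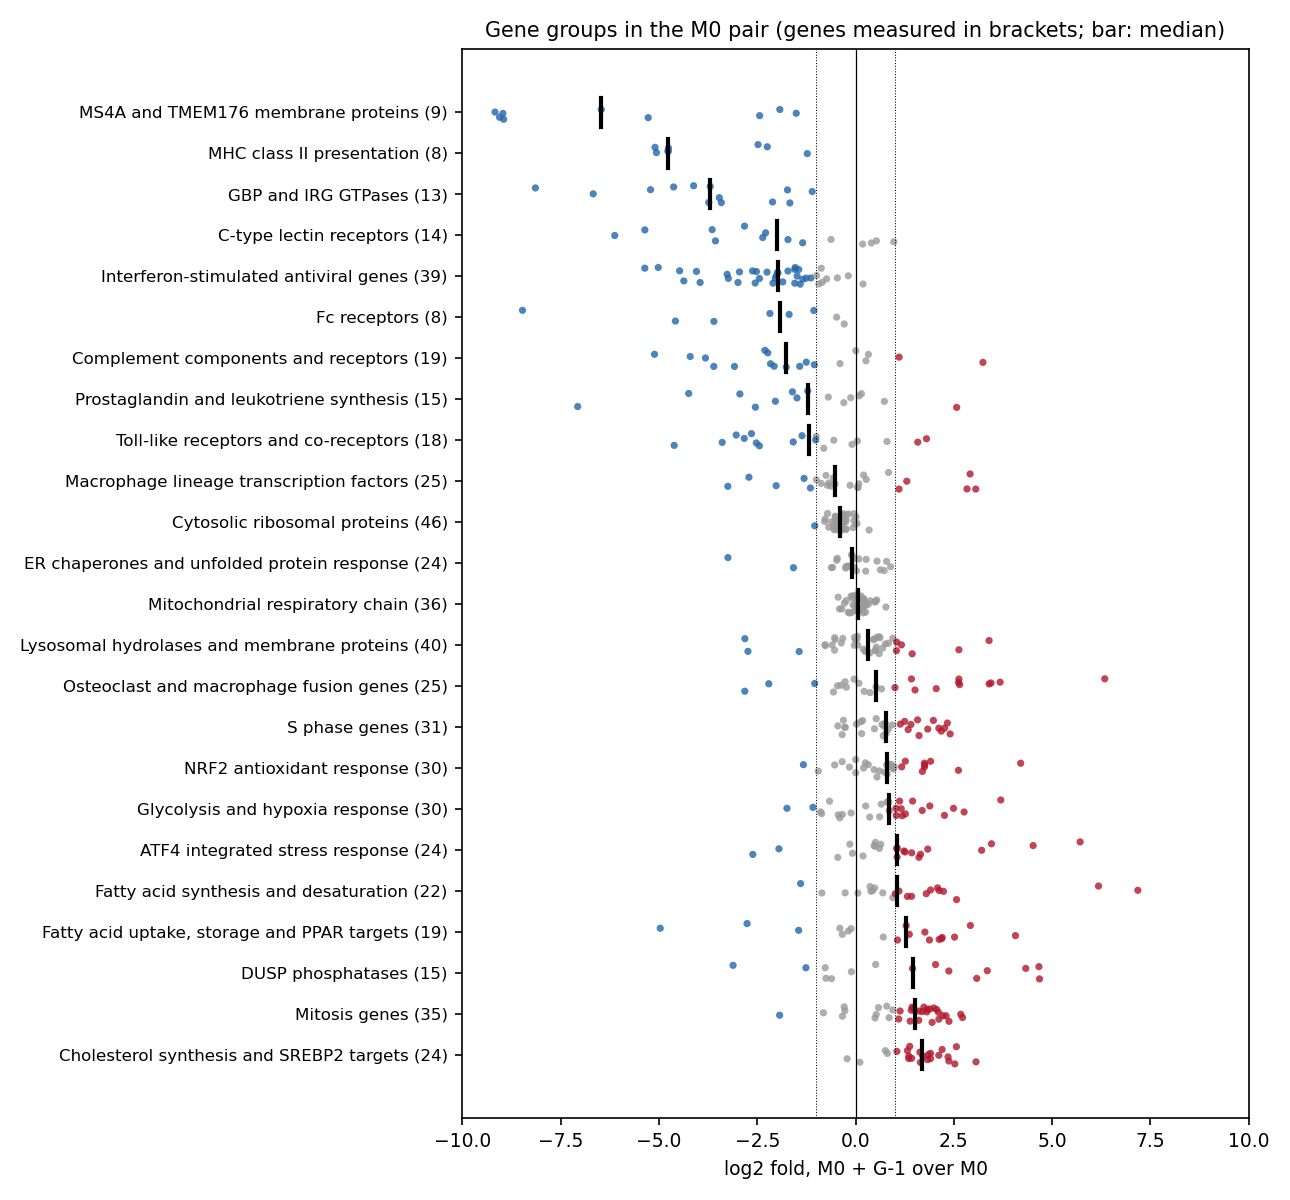
Log2 fold of M0 + G-1 over M0 (x axis) for the measured genes of 24 groups, 1 point a gene, with the number measured in brackets, a black bar at the median and dotted lines at 2-fold. Medians run from -6.47 for the MS4A and TMEM176 proteins to 1.68 for cholesterol synthesis, and the respiratory chain genes lie within 2-fold.

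Sterol synthesis was the most uniform of the higher groups. Of 24 genes of cholesterol synthesis and other SREBP2 targets 20 rose by 2-fold or more with G-1 and 0 fell, against 12.2% higher over all genes, and the median log2 fold of the 24 was 1.68. Sqle, the squalene epoxidase, had 6157 counts with G-1 and 777 without (log2 fold 3.06, interval 2.96 to 3.17). Fdps, the farnesyl diphosphate synthase, had 3540 and 720 (log2 fold 2.37), and Hsd17b7 had 1212 and 216 (log2 fold 2.57). Ebp, a sterol isomerase, was the 1 gene below 0, with 1547 and 1892 counts (log2 fold -0.21). Promoters were found for 17 of the 24 genes. The letters TCACNCCAC on either strand, a core of the sterol regulatory element, occurred in 1 of the 17, Hmgcs1, against 1.38% of measured genes. The promoter of Hmgcs1, the synthase before HMG-CoA reductase, is printed with its match in capitals. No match in the others says only that these letters are not in this window.
Hmgcs1, chr13:119690101-119690400, plus strand: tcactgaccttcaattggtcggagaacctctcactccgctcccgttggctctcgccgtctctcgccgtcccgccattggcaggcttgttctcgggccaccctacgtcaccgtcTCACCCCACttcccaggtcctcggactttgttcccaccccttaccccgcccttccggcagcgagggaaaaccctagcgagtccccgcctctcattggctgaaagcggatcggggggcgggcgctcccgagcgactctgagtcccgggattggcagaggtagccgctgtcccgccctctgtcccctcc
Hmgcs1 had 6497 counts with G-1 and 1929 without (log2 fold 1.83).

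Fatty acid genes were higher with the sterol genes. Of 22 genes of fatty acid synthesis and desaturation 12 were higher and 1 lower (median log2 fold 1.06). Beside Scd1 and Scd2 were Fasn, the fatty acid synthase (8804 counts with G-1 and 2127 without, log2 fold 2.13), and Fads2, the delta-6 desaturase (467 and 83, log2 fold 2.57). Of 19 genes of uptake, storage and PPAR targets 11 were higher and 3 lower (median 1.29). Pparg itself had 2037 counts with G-1 and 584 without (log2 fold 1.88), and its targets included the fatty acid binding protein Fabp4 (3036 and 423, log2 fold 2.92), the lipoprotein lipase Lpl (174280 and 39932, log2 fold 2.20) and the lipid droplet protein Hilpda (1260 and 232, log2 fold 2.52). Angptl4, also a PPAR target and an inhibitor of lipoprotein lipase, was lower, with 43 and 307 counts (log2 fold -2.76). The targets of LXR split, 5 higher and 5 lower of 16. Abcg1, an exporter of cholesterol, had 28360 counts with G-1 and 4897 without (log2 fold 2.61), but Apoe had 82159 and 703566 (log2 fold -3.02) and Pltp, the phospholipid transfer protein, 10324 and 42531 (log2 fold -1.97).

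ATF4 is the transcription factor of the integrated stress response, which cells start when amino acids are short or the endoplasmic reticulum is stressed. Of 24 ATF4 targets 13 were higher and 2 lower (median log2 fold 1.05). Chac1, which degrades glutathione, had 149 counts with G-1 and 3 without (log2 fold 5.71, interval 4.14 to 8.01), Trib3, a pseudokinase, had 868 and 40 (log2 fold 4.52), and Asns, the asparagine synthetase, had 1925 and 185 (log2 fold 3.46). The 2 lower targets were Nupr1, with 42 and 271 counts (log2 fold -2.61), and Ddit4, with 41 and 167 (log2 fold -1.95). The letters TGATGCAA on either strand, the composite element of ATF4 and C/EBP factors, occurred in the promoters of 4 of 20 genes, Aars, Chac1, Nupr1 and Yars (20%), against 0.735% of measured genes. Both directions of fold occurred among them. Chac1 is printed with its match in capitals.
Chac1, chr2:119350992-119351291, plus strand: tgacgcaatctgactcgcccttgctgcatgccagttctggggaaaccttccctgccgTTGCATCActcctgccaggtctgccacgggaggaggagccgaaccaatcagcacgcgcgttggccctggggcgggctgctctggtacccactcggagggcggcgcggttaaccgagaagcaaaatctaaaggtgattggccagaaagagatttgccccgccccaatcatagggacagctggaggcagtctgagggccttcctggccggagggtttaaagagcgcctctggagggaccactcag
Of 19 amino acid transporters 7 were higher and 1 lower. Slc7a11, which imports cystine for glutathione, had 2822 counts with G-1 and 162 without (log2 fold 4.20), Slc7a1, the importer of arginine, had 3816 and 334 (log2 fold 3.59), and Slc7a5, of large neutral amino acids, had 758 and 117 (log2 fold 2.77). Phgdh, the first enzyme of serine synthesis, had 463 and 29 (log2 fold 4.07), and Mthfd2, of mitochondrial one-carbon metabolism, had 3059 and 298 (log2 fold 3.44). Of the 15 serine and one-carbon genes 6 were higher and 2 lower. The chaperones of the endoplasmic reticulum did not move with the ATF4 targets. Of 24 such genes 0 were higher and 2 lower (median -0.09), and Calr, which encodes calreticulin, was at 0.79.

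Of 30 NRF2 targets, the genes of the antioxidant response, 9 were higher and 1 lower (median 0.80). Srxn1, the sulfiredoxin, had 18309 counts with G-1 and 3149 without (log2 fold 2.62), whereas Nqo1, a classical NRF2 target, had 275 and 419 (log2 fold -0.53) and Osgin1 had 1069 and 2827 (log2 fold -1.33). Of 30 genes of glycolysis and the hypoxia response 13 were higher and 2 lower (median 0.85). Hk3, a hexokinase of myeloid cells, had 27534 counts with G-1 and 4287 without (log2 fold 2.76), and Pfkp, a phosphofructokinase, had 8190 and 1801 (log2 fold 2.26). Hif1a, the factor of the hypoxia response, was lower, with 3717 and 8304 (log2 fold -1.08). All 36 nuclear genes of the mitochondrial respiratory chain lay within 2-fold, from -0.44 to 0.77 on the log2 scale. Of 46 ribosomal protein genes 45 lay within 2-fold, although 43 were below 0 (median -0.39). Ribosome biogenesis genes differed in the other direction, with 6 of 25 higher, 0 lower and 23 above 0. Polr1a, the largest subunit of RNA polymerase I, had 2240 counts with G-1 and 522 without (log2 fold 2.18).

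Lysosomal genes were mostly alike, with 6 of 40 higher and 3 lower (median 0.32). The cathepsins parted: Ctsd and Ctsk were higher, while Ctsc, which activates serine proteases, had 3966 counts with G-1 and 27872 without (log2 fold -2.74) and Ctsf had 221 and 1640 (log2 fold -2.81). In iron handling Steap3, a ferric reductase, had 7356 counts with G-1 and 1242 without (log2 fold 2.64), and Cp, the ferroxidase ceruloplasmin, had 6 and 702 (log2 fold -6.79).

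Cell cycle genes were higher in the M0 + G-1 library. Of 35 mitosis genes 24 were at least 2-fold higher and 1 lower (median log2 fold 1.51), and of 31 S phase genes 13 were higher and 0 lower (median 0.78). Prc1, which bundles the central spindle, had 721 counts with G-1 and 119 without (log2 fold 2.68, interval 2.39 to 2.97). Tpx2, a spindle assembly factor, had 800 and 171 (log2 fold 2.30), Foxm1, the factor that drives mitotic genes, had 395 and 89 (log2 fold 2.23), and Uhrf1, which maintains DNA methylation at replication, had 397 and 83 (log2 fold 2.33). Cdk1, the mitotic kinase, did not go with them and had 533 and 687 counts (log2 fold -0.29). Cenpa, the centromeric histone, was the 1 lower gene, with 559 and 2249 (log2 fold -1.93). The regulators of entry into the cycle differed in both directions. Cdkn1c, the CDK inhibitor p57, had 54709 counts with G-1 and 421 without (log2 fold 7.10), while Cdkn1b, the inhibitor p27, had 762 and 2977 (log2 fold -1.89). Ccnd1, the cyclin D1 gene, had 3028 and 966 (log2 fold 1.73), Ccnd3 had 920 and 2707 (log2 fold -1.48), and Cdk6 had 8022 and 1410 (log2 fold 2.59). Counts of transcripts do not measure division.

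**Figure D4:**
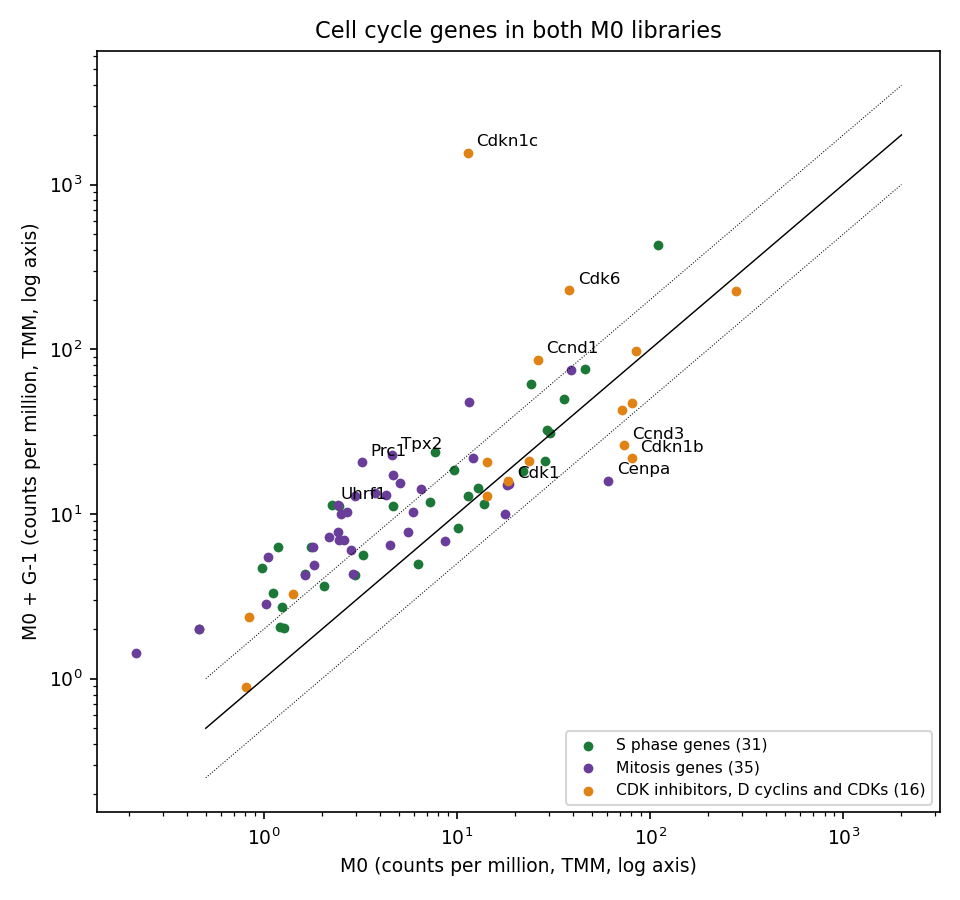
Level of cell cycle genes in the M0 + G-1 library (y axis) against the M0 library (x axis), both in CPM after TMM on log axes, 1 point a gene, with lines at equality (solid) and at 2-fold (dotted). Of the 35 mitosis genes 24 lie above the upper 2-fold line, Cenpa lies below the lower one, and Cdkn1c, with a log2 fold of 7.10, stands far above both.

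Of 10 tubulin genes 6 were higher and 0 lower. Tubb2b had 432 counts with G-1 and 17 without (log2 fold 4.74) and Tuba1a had 1881 and 498 (log2 fold 1.99), with reads that near-identical tubulins may share. Of 26 actin and podosome genes 8 were higher and 3 lower, among them Vcl, the vinculin gene (4790 and 907, log2 fold 2.48), and Marcksl1, an actin-binding substrate of protein kinase C (622 and 10805, log2 fold -4.04). Bcl2 and Bcl2l1, inhibitors of apoptosis, had 817 and 6490 counts with G-1 and 67 and 1417 without (log2 folds 3.69 and 2.27). Bmf, a promoter of apoptosis, was lower, with a log2 fold of -2.55. Over the whole list of 25 apoptosis regulators 3 were higher and 3 lower, close to the 12.2% and 12.6% of all genes, with a median log2 fold of -0.05. Of 23 p53 targets 4 were higher and 5 lower.

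Genes on the known routes of GPER1 were looked at next. The receptor genes Gper1 and Esr2 gave few or no counts, and the gene groups differed in direction from one another. Gper1, on chromosome 5 from 139423150 to 139427800 of GRCm38, had 0 counts with G-1 and 2 without. This is under the minimum of 20 counts, so no fold was computed. Esr2 had 0 counts in both libraries. Esr1 had 58 counts with G-1 and 227 without (log2 fold -1.89, interval -2.33 to -1.47). GPER1 is known to raise cAMP in several cell types. Among 20 cAMP-responsive genes Dio2 was the 1 higher gene and 7 were lower, among them the orphan nuclear receptor Nr4a1 (77 and 645, log2 fold -2.99) and the phosphodiesterase Pde4b (245 and 1920, log2 fold -2.89). Of 15 DUSP phosphatases, which switch MAP kinases off, 8 were higher and 2 lower, with Dusp9 at 437 counts with G-1 and 18 without (log2 fold 4.68). The DUSP list, like all the other gene lists here, was chosen with earlier results of these data known. None of the lists is therefore independent evidence of its direction, in this pair or between the pairs. Of 19 immediate-early factors 4 were higher and 4 lower, with Egr2 at 1644 and 262 counts (log2 fold 2.73) and Ier3 at 148 and 2084 (log2 fold -3.74). Nuclear hormone receptors were lower in 6 of 11 genes and higher in 0, with the retinoic acid receptor Rara at 633 and 2707 counts (log2 fold -2.02).

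Of 16 coagulation and fibrinolysis genes 7 were higher and 6 lower. Procr, the protein C receptor, had 1551 counts with G-1 and 161 without (log2 fold 3.35), and Plaur, the urokinase receptor, had 5365 and 1450 (log2 fold 1.96). F13a1, the A subunit of factor XIII, had 205 and 55087 (log2 fold -7.99), and Pf4, a platelet chemokine that macrophages also make, had 1774 and 21346 (log2 fold -3.51). Of 16 profibrotic and angiogenic growth factors 6 were higher and 3 lower. Gdf15, a stress cytokine, had 5567 and 636 (log2 fold 3.21), Pdgfa 1251 and 527 (log2 fold 1.32), and Tgfb1, the TGF-β1 gene, 20625 and 22678 (log2 fold -0.06). Bmp2 was lower, with 43 and 737 (log2 fold -4.02), and so was Vegfa, with 1345 and 3044 (log2 fold -1.10). Of 13 extracellular matrix genes 8 were lower and 4 higher, with a median log2 fold of -1.71. Thbs1, which encodes the matrix protein thrombospondin 1, had 2288 and 67465 (log2 fold -4.80), and Col18a1, a basement membrane collagen, had 14042 and 2483 (log2 fold 2.58). Among 3 endothelial markers measured Vwf (8345 and 831, log2 fold 3.41) and Kdr (876 and 145, log2 fold 2.67) were higher and Pecam1 (4 and 195, log2 fold -5.53) was lower, and Tek and Emcn were at 0 in both libraries.

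The effect in M0 macrophages was then set beside that in M1 and M2 macrophages, for which G-1 was given for 48 h together with LPS and interferon-gamma or with IL-4, again 1 pooled library a group. The 3 pairs share no library. Of the M0 higher genes measured in the M2 pair, 464 of 1299 (35.7%) were higher there too, against 5.34% of all genes measured in both pairs, and 27 (2.08%) were lower. These 464 were 78.9% of the higher genes of the M2 pair. Of the M0 lower genes 601 of 1303 (46.1%) were lower in the M2 pair, against 7.13%, which was 76.6% of the lower genes of that pair, and 11 were higher. The M1 pair gave smaller shares. Of 1217 M0 higher genes 188 (15.4%) were higher there, against 9.13%, and 187 (15.4%) were lower, against 10.8%. Of 1153 M0 lower genes 251 (21.8%) were lower there, against 10.8%, and 98 (8.5%) were higher, against 9.13%. The folds of the M1 pair followed transcript length closely (Spearman's rho -0.57 across genes, against 0.13 in the M0 pair and 0.02 in the M2 pair). With the trend on length and GC content removed, the shares in the M1 pair were 13.7% for the higher and 21.6% for the lower genes. The shares over all genes are not given for that setting.

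The counts of single groups are set side by side here and, list by list, were not tested. Over all genes shared with the M0 pair, 9.13% were higher and 10.8% lower in the M1 pair, and 5.34% and 7.13% in the M2 pair. In the M1 pair, whose folds followed transcript length, 39 of 46 ribosomal protein genes (median log2 fold 1.18) and 17 of 36 respiratory chain genes (median 0.98) were higher too, and the part of length in the M1 values of the groups was not tested. Of the 39 antiviral genes measured in the M1 pair 11 were higher with G-1 and 0 lower (median log2 fold 0.55), where the M0 pair had 0 and 31 (median -1.98) and the M2 pair 1 and 9 of 38 (median -0.59). MHC class II genes were higher in 4 of 10 and lower in 0 in the M1 pair (median 0.75), against 8 of 8 lower in the M0 pair and 6 of 8 in the M2 pair (median -1.28). All 11 MS4A and TMEM176 genes measured in the M2 pair were lower, and 4 of 10 in the M1 pair. Mitosis genes, higher in 24 of 35 in the M0 pair, were higher in 0 of 35 and lower in 9 in the M2 pair (median -0.71), and higher in 1 of 26 and lower in 9 in the M1 pair (median -0.66). Cholesterol synthesis genes were higher in 20 of 24 in the M0 pair, in 4 of 24 in the M1 pair and in 3 of 24 in the M2 pair, with 0 lower in each. ATF4 targets were higher in 13 of 24 genes in both the M0 and the M2 pair and in 2 of 24 in the M1 pair. Mmp12 was higher in the M2 pair as well (log2 fold 4.30), with 0.77 in the M1 pair.

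**Figure D5:**
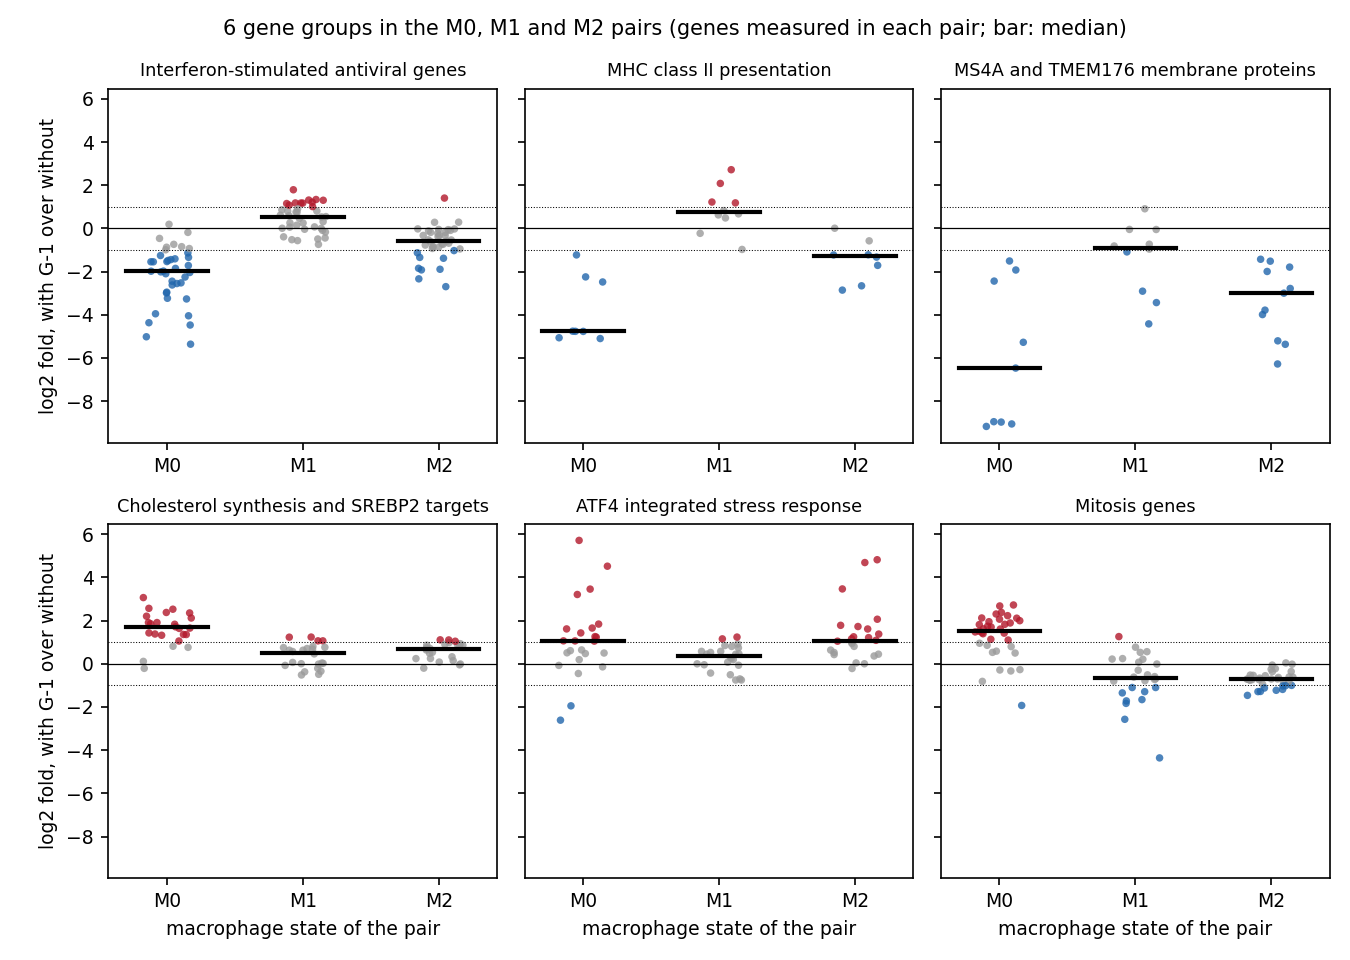
Log2 fold of the library with G-1 over the one without (y axis) in the M0, M1 and M2 pairs (x axis) for 6 gene groups, 1 point a gene measured in that pair, with a black bar at the median and dotted lines at 2-fold. Antiviral genes have medians of -1.98, 0.55 and -0.59 and mitosis genes 1.51, -0.66 and -0.71 in the M0, M1 and M2 pairs.

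The difference itself was tested over the 6 libraries with edgeR's quasi-likelihood test, in a model of macrophage state, G-1 and the extra effect of G-1 in M0. Its 1 residual degree of freedom is the disagreement between the M1 and M2 pairs. Of 12452 genes 4 passed an adjusted p of 0.05 (0.0321%), 0 with the M0 effect above that in M1 and M2 and 4 with it below, and 683 had an unadjusted p under 0.05, 393 above and 290 below. DESeq2 called 22 genes above and 24 below. The 4 were Ifi206 (fitted log2 difference -7.00, adjusted p = 0.0184), an interferon-inducible DNA sensor family gene, Ms4a4c (-8.03, adjusted p = 0.0394), Slfn1, a schlafen gene induced by interferon (-9.79, adjusted p = 0.0394), and Ifi44 (-9.73, adjusted p = 0.0428). Ifi206 had 3 counts in M0 with G-1 and 398 without, 2032 and 2067 in M1, and 25 and 27 in M2. Slfn1 and Ifi44 had 0 counts in M0 with G-1, so their fitted differences depend on the prior count and are no bounds. Gprc5b (4.47, adjusted p = 0.0580), Itgb3 (4.02, adjusted p = 0.0862), Arg2 (-6.85, adjusted p = 0.0961) and H2-Ab1 (-4.66, adjusted p = 0.124) did not pass, nor did Ifit1bl1 (-5.70, adjusted p = 0.0862). Arg2, the mitochondrial arginase, had 1 count in M0 with G-1 and 45 without, against 904 and 567 in M1 and 55 and 9 in M2. Of the 35 mitosis genes 24 had an unadjusted p under 0.05 with the M0 effect above the others, and of the 39 antiviral genes 25 with it below, against 393 and 290 of all 12452 genes. Together these 393 and 290 were 5.49% of the genes. The smallest adjusted p of a mitosis gene in edgeR's test was 0.232, so none passed. Genes of a list share the 6 libraries and were chosen with earlier results known, so these counts are no test of a list.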

How the data were processed

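RNA was extracted from bone marrow-derived macrophages with TRIzol, 3 samples were pooled per group, and libraries were made with the VAHTS Universal V6 kit and sequenced with paired ends. The authors deposited raw counts of reads per gene symbol, 1 table a library. Per the labels, the processing notes name mm10 and DESeq2; the aligner, counting tool and strand setting were not given in the sources used here, so a gene and an overlapping or antisense partner may share reads. The 6 macrophage libraries were used, and the 2 libraries of tubular cells were not used here.

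Folds were computed in Python 3.11.15 (numpy 2.4.6, pandas 2.3.3, scipy 1.17.1) on edgeR 4.0.16 TMM factors within each pair, in R 4.3.3. A gene was measured once either library reached 20 counts, and called at 2-fold. Against 0 counts, the floor was 3 counts. The difference between M0 and the other states was tested with edgeR's quasi-likelihood test and Benjamini-Hochberg adjustment, after filterByExpr; DESeq2 1.42.0 was the other tool. Folds were tested on simulated data with the means of both M0 libraries and counting error only: 0% of genes with a true fold of 1.5, 98% with 2.5 and 100% with 4 or 8 were called, against 0.257% of unchanged genes. With a dispersion of 0.1, the test of the difference found 2% of 2-fold, 4% of 4-fold, 30% of 8-fold and 76% of 16-fold differences, with 1 false call among 12452 genes. In that simulation G-1 had no effect in M1 and M2, so those pairs differed by noise only. How much the test finds where the M1 and M2 pairs disagree, as they did in these data, was not tested.

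Names, positions and promoters were those of RefSeq on GRCm38.p6. GENCODE M21 gave the length and GC content of transcripts. The named genes were the top 15 by fold, up and down, of those reaching 100 counts in either library, predicted genes left out; up to 4 members a direction of each described list, or every member of lists of 10 or fewer; Gper1, Esr1 and Esr2; the study's macrophage panel; and the cell type markers. A few other list members were named after their values were seen. The members and lists were chosen with earlier results of these data known. Alternatives were other scalings, count minimums, the interval's bound nearer to 0, 5 added counts, the threshold of the study, and removal of running medians (501 genes) by length and then GC content.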

Additional observations from a re-analysis of the deposited data

Results flagged for a closer look

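The G-1 effect in M0 differed from that in M1 and M2 macrophages, by the test of the difference, at 4 genes. The fitted log2 difference was -7.00 for Ifi206, -8.03 for Ms4a4c, -9.79 for Slfn1 and -9.73 for Ifi44. Ms4a4c had 1 count in M0 with G-1 and 528 without, 4165 and 4822 in M1, and 13 and 54 in M2. Slfn1 had 0 and 75 counts in M0, 4968 and 3850 in M1, and 2 and 2 in M2, and Ifi44 had 0 and 130, 1790 and 2061, and 8 and 17. The M2 libraries held between 2 and 54 counts of Ifi206, Ms4a4c, Slfn1 and Ifi44, so their folds there have wide counting error.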

How the results depend on the processing

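No paired analysis was possible because each group has 1 library, and no replicate could be left out for the same reason. The counts of higher and lower genes stayed within 1.5 times of 1375 and 1416 under other scalings, count minimums, 5 added counts, the interval's bound nearer to 0 and removal of the length and GC trend. With a fold of 2 and p under 0.05 from DESeq2, both libraries taken as 1 group, 241 were higher and 274 lower. With total counts, 13.3% of the M0 higher genes were higher in the M1 pair and 41.3% in the M2 pair, and 25.9% of the M0 lower genes were lower in the M1 pair and 39.4% in the M2 pair. With a minimum of 100 counts, 18.1% of the M0 lower genes were lower in the M1 pair. With the length and GC trend removed these shares were 13.7% and 36.8% for the higher genes and 21.6% and 46.8% for the lower ones. The shares over all genes are not given for these settings. The genes that differed between M0 and the other states numbered 46 with DESeq2, 9 with DESeq2 size factors in edgeR and 99 with no filter, against 4, so this count rests on the tool and the filter. Of the 550 listed or named genes past 2-fold, 30 fell under it with total counts, 5 with 5 added counts and 14 of 549 with the trend removed, and 0 changed sign. No median of the 61 lists turned its direction past 2-fold. Another scaling shifts all folds of the pair by 1 amount, so it could hardly turn a sign past 2-fold. Medians near 2-fold did cross it. With total counts the ATF4 median was 0.90 against 1.05 (10 of 24 genes higher against 13). That of fatty acid synthesis was 0.90 against 1.06 (10 of 22 higher against 12). Chemoattractant receptors went past 2-fold, at -1.07 against -0.91. With a minimum of 100 counts the matrix list, lower in 8 and higher in 4 of 13 genes, was lower in 3 and higher in 3 of the 7 left. Its median log2 fold was -0.21 against -1.71. The CC chemokines, lower in 5 and higher in 3 of 11 (median -0.17), were lower in 2 and higher in 2 of 7 (median -0.02). The median of prostaglandin and leukotriene genes was -0.95 against -1.22, of nuclear receptors -0.97 against -1.08 and of purinergic genes -1.13 against -0.82. Pooled samples leave the spread between cultures unknown, and genes with few counts have wide intervals.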
